A study of Mus musculus with 30 samples.

Results

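The purinergic receptors and ectonucleotidase of microglia, 10 genes in all, were followed in bulk RNA sequencing of mouse primary cultures labelled as microglia, the resident macrophages of the brain. Their proteins sense or break down extracellular nucleotides: the ADP receptors P2ry12 and P2ry13, the UDP and ATP/UTP receptors P2ry6 and P2ry2, the ATP-gated channels P2rx4 and P2rx7, the ectonucleotidase Entpd1 (CD39), and the adenosine receptors Adora2a, Adora2b and Adora3. They form a named list of 10 among the 38031 genes of the count table; the list names genes by function and sets no threshold on their values, and all 10 were among the 14346 genes that passed a filter on low counts. Cells came from C57BL/6 mice at postnatal day 21 that either lacked Lrrk2 (Lrrk2-/-, here KO), a kinase linked to Parkinson's disease, or were wild type. There were 5 KO libraries with alpha-synuclein fibrils, 4 KO libraries with lipopolysaccharide (LPS), 6 KO control libraries, 4 wild-type libraries with fibrils, 6 wild-type libraries with LPS and 5 wild-type control libraries. LPS is a bacterial activator of Toll-like receptor 4, and alpha-synuclein forms the aggregates found in neurons of people with that disease. Neither dose, exposure time, sex nor pooling of animals was stated in the labels used here. The labels also do not say whether replicates are separate cultures or animals, so p-values measure only the spread between these libraries, which may be technical.

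Purinergic signalling begins when cells release ATP, ADP or UTP, which bind P2X channels or P2Y receptors on microglia. CD39 removes phosphates from ATP and ADP, and further hydrolysis of the resulting AMP yields adenosine, which acts on the adenosine receptors. In the brain, P2Y12 is known as a marker of resting microglia and guides their processes towards sites of injury, P2Y6 is known for its part in phagocytosis, and P2X7 for triggering the NLRP3 inflammasome.

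Libraries held 8936310 to 35677005 counts over all genes. Lrrk2 itself was at 0.731 to 4.68 CPM (counts scaled to library size) in the KO libraries and 6.87 to 16.7 CPM in the wild-type libraries, with no overlap. Tnf, a gene that both stimuli induce in macrophages, was at 469 to 955 CPM with fibrils, 1777 to 2199 CPM with LPS and 76.4 to 172 CPM in controls of KO cells, and at 462 to 527, 1776 to 2757 and 78.0 to 141 CPM in the same groups of wild-type cells. Of 11 microglia markers, 10 passed the filter, and the summed level of the list was 2906 to 5146 CPM over all libraries. The exception was Siglech, with a median of 0 in every group and at most 0.0632 CPM. Markers of other brain cell types differed between groups: the mean log2 CPM of 26 such markers was 1.20 to 2.89 in KO libraries with fibrils and -0.76 to -0.37 in wild-type libraries with fibrils, against 1.23 to 3.81 in KO controls and -0.39 to 3.12 in wild-type controls. A set of 7 libraries stood apart in RNA composition, total count or these markers (wild-type LPS 1 and 6, wild-type control 6, KO fibril 5, and KO control 1, 4 and 6), and counts of the 10 genes called are also given without them. In bulk RNA, fewer cells of a type and less RNA per cell cannot be told apart.

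The promoter windows of 4 genes are printed because the paired ADP receptors fell with fibrils while P2ry2 and Adora2b rose with LPS. Each runs from 250 bases before to 50 bases after a start site, from RefSeq on GRCm38.p6, in which 8 of the 10 genes were matched (P2ry6 and Adora2a were not). Capitals mark every CG dinucleotide and, in P2ry13, the run of the PU.1 motif GAGGAAG. On GRCm38 (mm10) the genes themselves lie at chr3:59216272-59262871 (P2ry12), chr3:59207892-59210882 (P2ry13), chr7:100937630-100974649 (P2ry6), chr7:100996568-101012866 (P2ry2), chr5:122707544-122729738 (P2rx4), chr5:122643911-122691432 (P2rx7), chr19:40612366-40741602 (Entpd1), chr10:75316877-75334784 (Adora2a), chr11:62248984-62266453 (Adora2b) and chr3:105870858-105908926 (Adora3), all protein-coding. The windows are P2ry12 at chr3:59262936-59263235 (minus strand), P2ry13 at chr3:59210833-59211132 (minus strand), P2ry2 at chr7:101012004-101012303 (minus strand) and Adora2b at chr11:62248734-62249033 (plus strand).
P2ry12: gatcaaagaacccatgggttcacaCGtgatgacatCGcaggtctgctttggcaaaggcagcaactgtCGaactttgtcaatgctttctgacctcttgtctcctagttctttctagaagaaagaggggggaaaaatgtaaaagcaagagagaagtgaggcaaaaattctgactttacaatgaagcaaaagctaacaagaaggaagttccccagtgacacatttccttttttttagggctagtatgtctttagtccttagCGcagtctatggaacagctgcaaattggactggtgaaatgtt
P2ry13: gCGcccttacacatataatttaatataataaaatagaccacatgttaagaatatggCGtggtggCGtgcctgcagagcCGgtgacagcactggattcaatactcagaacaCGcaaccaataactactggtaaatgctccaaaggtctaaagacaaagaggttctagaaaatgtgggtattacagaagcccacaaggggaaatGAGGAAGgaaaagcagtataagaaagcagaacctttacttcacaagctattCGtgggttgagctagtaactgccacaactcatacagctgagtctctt
P2ry2: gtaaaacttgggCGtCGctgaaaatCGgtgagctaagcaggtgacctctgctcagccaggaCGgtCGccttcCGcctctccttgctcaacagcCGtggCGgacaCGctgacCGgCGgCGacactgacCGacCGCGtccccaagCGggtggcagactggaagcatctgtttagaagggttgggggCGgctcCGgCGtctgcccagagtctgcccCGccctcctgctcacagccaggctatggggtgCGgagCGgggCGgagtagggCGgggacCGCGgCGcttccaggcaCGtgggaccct
Adora2b: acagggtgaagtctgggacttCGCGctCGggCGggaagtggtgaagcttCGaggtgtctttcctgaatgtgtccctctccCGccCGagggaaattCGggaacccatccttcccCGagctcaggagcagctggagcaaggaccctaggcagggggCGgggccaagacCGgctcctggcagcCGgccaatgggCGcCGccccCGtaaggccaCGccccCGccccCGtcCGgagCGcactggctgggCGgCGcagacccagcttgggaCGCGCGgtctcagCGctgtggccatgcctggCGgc

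Of the windows printed, those of the ADP receptors held 4 (P2ry12) and 6 (P2ry13) CG dinucleotides, and the others 28 (P2ry2) and 27 (Adora2b). This does not follow the direction of change over the list: Entpd1, which also fell with fibrils, held 23 and 10 at its start sites, and P2rx7 held 8 and 4. The median over 32851 promoters was 7. Their GC content was 42.3% for both ADP receptors, 67.3% for P2ry2 and 70.0% for Adora2b, against a median of 52.7%. Motifs were searched on both strands as exact letters: PU.1 (GAGGAAG, in 13.6% of all promoters), AP-1 (TGANTCA, 7.81%), CRE (TGACGTC, 3.21%), ISRE (3.44%) and NF-kB (4.51%). P2ry13 held a PU.1 match 48 bases before its start, and Adora3 held an AP-1 match 98 and a PU.1 match 29 bases before its start. P2rx7 and Entpd1, with a pair of start sites each, held matches at 1 or both of them, and P2ry12, P2ry2, P2rx4 and Adora2b held none of these letters in the window. P2ry2 also has a pair of start sites, and its second window, not printed, held 30 CG dinucleotides, a GC content of 71.0% and no match. A match describes letters and is not a binding site.

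Levels per transcript length (TPM, computed here from the counts) spanned a wide range. P2rx4 was highest in every group, at 219 ± 36.5 TPM in KO fibril libraries, 181 ± 24.8 in KO LPS libraries and 221 ± 51.5 in KO controls (SD, n = 5, 4 and 6), and at 265 ± 10.4, 212 ± 21.8 and 233 ± 21.7 TPM in wild-type fibril, LPS and control libraries (n = 4, 6 and 5). P2ry6 was second in every group, at means of 64.7 to 91.9 TPM, and its libraries did not overlap those of P2rx4. In controls the order then ran Entpd1 (means 51.5 TPM in KO and 46.1 TPM in wild type) and P2rx7 (25.7 and 26.0 TPM), again without overlap between neighbours. P2ry12, P2ry2, Adora2b and P2ry13 followed at means of 3.11 to 7.57 TPM in controls, where each neighbour in that order overlapped the next. Adora3 (1.57 TPM in KO and 1.46 TPM in wild-type controls) and Adora2a (0.339 and 0.376 TPM) were lowest. With LPS, Adora2b was at 22.6 TPM in KO and 28.5 TPM in wild-type cells, where its libraries lay above those of P2rx7 in wild-type cells and overlapped them in KO cells. With fibrils, P2ry2, P2rx7 and Entpd1 had overlapping neighbours between 10.8 and 17.7 TPM in both genotypes. P2rx4 made up 65.0% of the summed TPM of the 10 genes in KO fibril libraries and 53.1% in KO controls, and 67.2% in wild-type fibril libraries and 55.2% in wild-type controls.

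**Figure D1:**
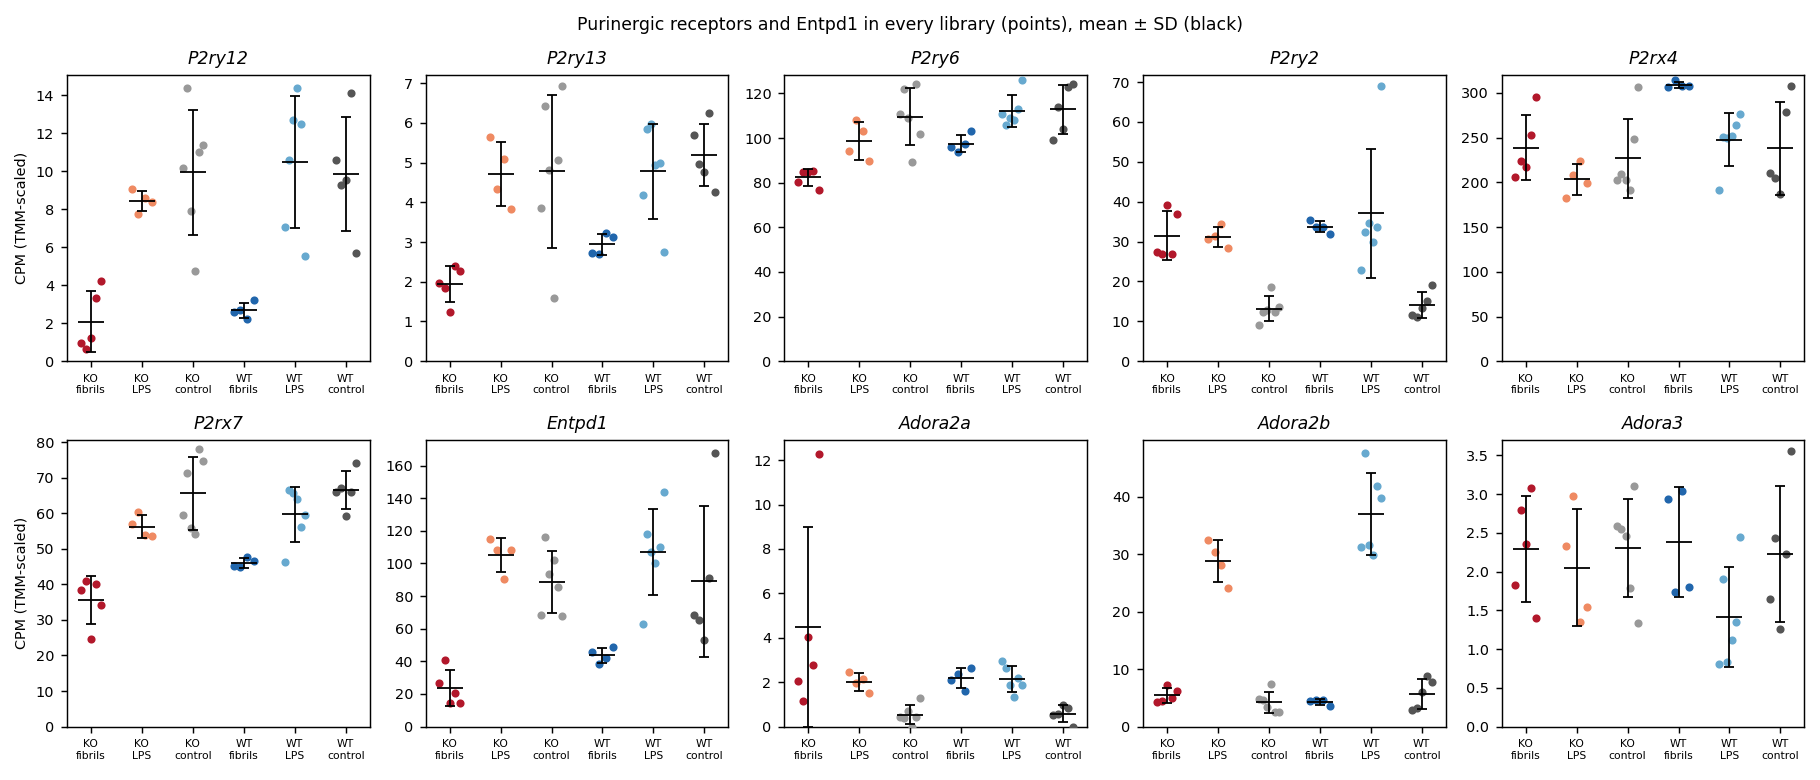
CPM of each gene (y axis, linear from 0) in all 30 libraries (points), with group means and SD in black, for KO and wild type with fibrils, LPS or control. P2ry12, P2ry13 and P2rx7 are low with fibrils in both genotypes, Adora2b is high only in the 10 LPS libraries, and P2ry2 is high with either stimulus.

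Fibrils shifted most of the list, lowering P2ry12, P2ry13, P2rx7 and Entpd1 and raising P2ry2 and Adora2a in both genotypes. In KO cells 7 of 10 genes passed the test (edgeR's quasi-likelihood test, Benjamini-Hochberg adjusted p under 0.05 over all genes): 5 fell and 2 rose, where 23.7% of all genes were called, 11.5% lower and 12.2% higher. Among wild-type libraries 7 of 10 passed as well, 4 lower and 3 higher, where 29.4% of all genes were called, 15.6% lower and 13.8% higher. The fibril and control libraries did not overlap for 5 genes in KO cells and 6 in wild-type cells, as for 8.09% and 29.8% of all genes. Without the 7 libraries that stand apart the counts were again 7 in KO and 7 in wild-type cells. With the other-cell marker score as a covariate they were 7 in KO and 5 in wild-type cells, and with RLE scaling or library size as the only scaling the wild-type calls were 5 lower and 2 higher. Leaving out single libraries gave 7 calls in KO and 4 to 8 in wild-type cells, with 4 reached without wild-type fibril replicate 2. The median log2 fold change of the list was -0.21 in KO and -0.31 in wild-type cells, and that of all genes -0.04 and -0.05.

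LPS, set against the same control libraries as fibrils, raised 3 genes, and none of the 10 passed the test in the other direction. P2ry2, Adora2a and Adora2b rose in KO cells, where 13.7% of all genes were called (6.36% higher, 7.35% lower), and in wild-type cells, where 15.1% were called (7.1% higher, 8.03% lower). Their libraries lay wholly above the controls. LPS and control libraries did not overlap, in either direction, for 10.2% of all genes in KO and 11.5% in wild-type cells. With library size as the only scaling, 6 genes were called in each genotype, 3 higher and 3 lower. Without the 7 libraries that stand apart, P2ry6 was also lower in KO cells and Entpd1 also higher in wild-type cells, 4 calls each. The median log2 fold change of the list was -0.09 in KO and 0.07 in wild-type cells, and that of all genes -0.04 and -0.02.

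**Figure D2:**
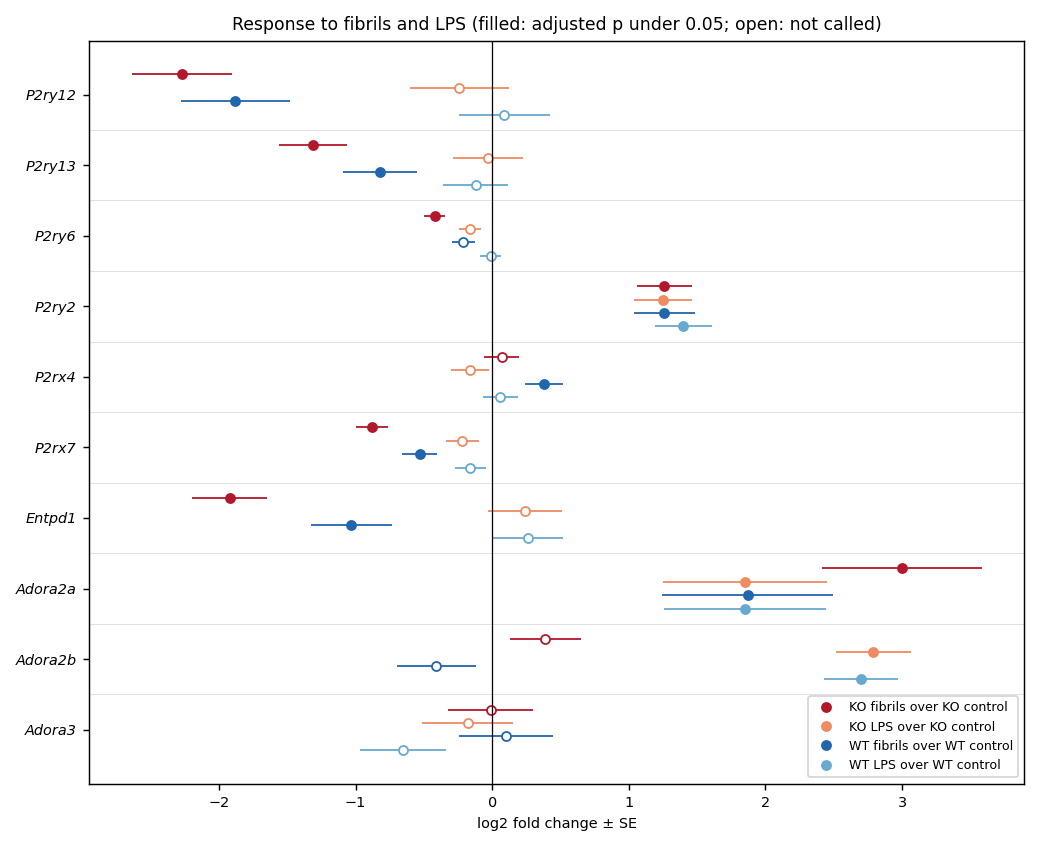
Log2 fold change ± SE (x axis) of each gene with fibrils or LPS over control, in KO and wild-type cells. Filled points passed the test. P2ry2 and Adora2a lie to the right under both stimuli, Adora2b under LPS, and P2ry12, P2ry13, P2rx7 and Entpd1 are filled to the left under fibrils in both genotypes.

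P2ry12 encodes a Gi-coupled ADP receptor. Its level was 0.982, 0.628, 1.20, 3.34 and 4.24 CPM in KO fibril libraries, against 4.77 to 14.4 CPM (median 10.6) in KO controls. In wild-type cells it was 2.58, 2.68, 2.25 and 3.22 CPM with fibrils, against 10.6, 9.28, 9.56, 14.1 and 5.72 CPM in controls. Every fibril library lay below every control library of its genotype. Of the 5 KO fibril libraries, 3 lay below all wild-type fibril libraries and the others, at 3.34 and 4.24 CPM, above all of them. The difference between KO and wild-type fibril libraries was -0.38 ± 0.40 (adjusted p = 0.605), not called. The fitted log2 fold change was -2.27 ± 0.37 in KO (adjusted p = 5.27e-05) and -1.88 ± 0.40 in wild-type cells (adjusted p = 0.00108). With LPS it was 7.76 to 9.07 CPM in KO and 5.54 to 14.4 CPM in wild-type cells, overlapping the controls, and was not called.

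P2ry13, another Gi-coupled ADP receptor, lies 5.4 kb from P2ry12 on the same strand of chromosome 3. Both overlap Med12l on the opposite strand, which itself had 0.122 to 2.22 CPM. Since no source used here states whether counting used strand, how far the counts of these genes and Med12l share reads cannot be told. P2ry13 was at 1.96, 1.84, 1.25, 2.4 and 2.26 CPM in KO fibril libraries, against 1.59 to 6.93 CPM (median 4.94) in KO controls. Wild-type libraries had 2.72, 2.71, 3.22 and 3.12 CPM with fibrils, against 5.70, 4.97, 4.75, 6.25 and 4.26 CPM in controls. The groups were separate in wild-type cells, while in KO cells 1 control library, replicate 4, lay among the fibril libraries. The log2 fold change was -1.31 ± 0.25 in KO (adjusted p = 0.000346) and -0.82 ± 0.27 in wild-type cells (adjusted p = 0.0245). That for wild-type cells no longer passed without wild-type fibril replicate 1 or 2 (adjusted p = 0.0648 and 0.0692), with the title's replicate number as a block (0.0599) and with the marker covariate (0.0791). With LPS it was 3.82 to 5.64 CPM in KO and 2.74 to 5.98 CPM in wild-type cells, not called. The ratio of P2ry12 to P2ry13 in TPM had a median of 1.12 in KO fibril libraries against 2.60 in KO controls, and 1.16 in wild-type fibril libraries against 2.19 in wild-type controls.

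P2ry6, the Gq-coupled UDP receptor, fell with fibrils in KO cells by a small amount. It was at 80.1, 84.8, 85.0, 85.2 and 76.8 CPM in KO fibril libraries, against 89.4 to 124 CPM (median 110.0) in KO controls, with no overlap. Wild-type libraries had 96.0, 93.8, 97.4 and 103 CPM with fibrils, against 99.2, 114, 104, 123 and 124 CPM in controls, which overlapped. It fell in KO cells by 0.42 ± 0.08 on the log2 scale (adjusted p = 0.000224). In wild-type cells the value was -0.21 ± 0.085 (adjusted p = 0.0606), which passed the test without KO control replicate 4, KO LPS replicate 3 or wild-type control replicate 1 (adjusted p 0.0183 to 0.0362) and under 8 of 13 other settings. With LPS its log2 fold change was -0.16 ± 0.08 in KO and -0.01 ± 0.08 in wild-type cells, not called.

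P2ry2, the Gq-coupled receptor for ATP and UTP, lies 21.9 kb from P2ry6 on chromosome 7 and rose with both stimuli. It was at 27.3, 26.9, 39.3, 26.8 and 37.0 CPM in KO fibril libraries and 30.7, 31.4, 34.5 and 28.4 CPM in KO LPS libraries, against 9.04 to 18.7 CPM (median 12.6) in KO controls. Wild-type cells had 35.4, 33.6, 33.7 and 32.0 CPM with fibrils and 23.0 to 68.9 CPM (median 33.0) with LPS, against 11.6, 11.2, 13.3, 15.1 and 19.1 CPM in controls. No stimulated library overlapped the controls of its genotype. Fibrils gave a log2 fold change of 1.26 ± 0.20 in KO (adjusted p = 4.22e-05) and 1.26 ± 0.22 in wild-type cells (adjusted p = 0.000156). LPS gave 1.25 ± 0.21 in KO (adjusted p = 8.36e-05) and 1.40 ± 0.21 in wild-type cells (adjusted p = 9.78e-06). These 4 calls held under all 13 other settings and without any single library. P2ry6 over P2ry2 in TPM had a median of 4.28 with fibrils and 4.61 with LPS against 13.3 in controls for KO, and 4.14 and 4.85 against 12.3 for wild type.

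P2rx4, an ATP-gated channel found largely in lysosomes, was the most abundant of the genes. It was at 206, 224, 217, 253 and 295 CPM in KO fibril libraries and 182 to 224 CPM in KO LPS libraries, against 191 to 307 CPM (median 206) in KO controls. Among wild-type libraries it was at 307, 314, 308 and 308 CPM with fibrils and 191 to 277 CPM (median 252) with LPS, against 211, 205, 187, 279 and 308 CPM in controls. The KO groups overlapped, and 1 wild-type control reached the fibril values. The wild-type fibril difference was 0.38 ± 0.14 (adjusted p = 0.0471). It was lost under 8 of 13 other settings, among them the marker covariate (0.10 ± 0.12, adjusted p = 0.624), and without any 1 of 18 single libraries (adjusted p 0.0503 to 0.135): KO control 2 and 3, KO LPS 2 to 4, KO fibril 2 and 4, wild-type control 1 to 3, wild-type LPS 2 to 5 and wild-type fibril 1 to 4. In KO cells the fibril value was 0.07 ± 0.13, not called.

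P2rx7, the channel that opens at high ATP, lies 16.1 kb from P2rx4 on chromosome 5 and fell with fibrils. It was at 38.3, 40.9, 24.6, 40.1 and 34.3 CPM in KO fibril libraries, against 54.3 to 78.0 CPM (median 65.4) in KO controls. In wild-type cells it was at 45.1, 44.9, 47.8 and 46.5 CPM with fibrils, against 66.1, 67, 59.3, 65.9 and 74.2 CPM in controls. All fibril libraries lay below all controls in both genotypes. The log2 fold change was -0.88 ± 0.12 in KO (adjusted p = 3.31e-06) and -0.53 ± 0.13 in wild-type cells (adjusted p = 0.00287), called under all 13 other settings and without any single library. LPS left it at 53.6 to 60.4 CPM in KO and 46.2 to 66.5 CPM in wild-type cells, not called. P2rx4 over P2rx7 in TPM was 13.5 to 23.9 in KO fibril libraries against 7.14 to 10.5 in KO controls, and 15.3 to 19.3 in wild-type fibril libraries against 7.30 to 11.4 in wild-type controls.

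**Figure D3:**
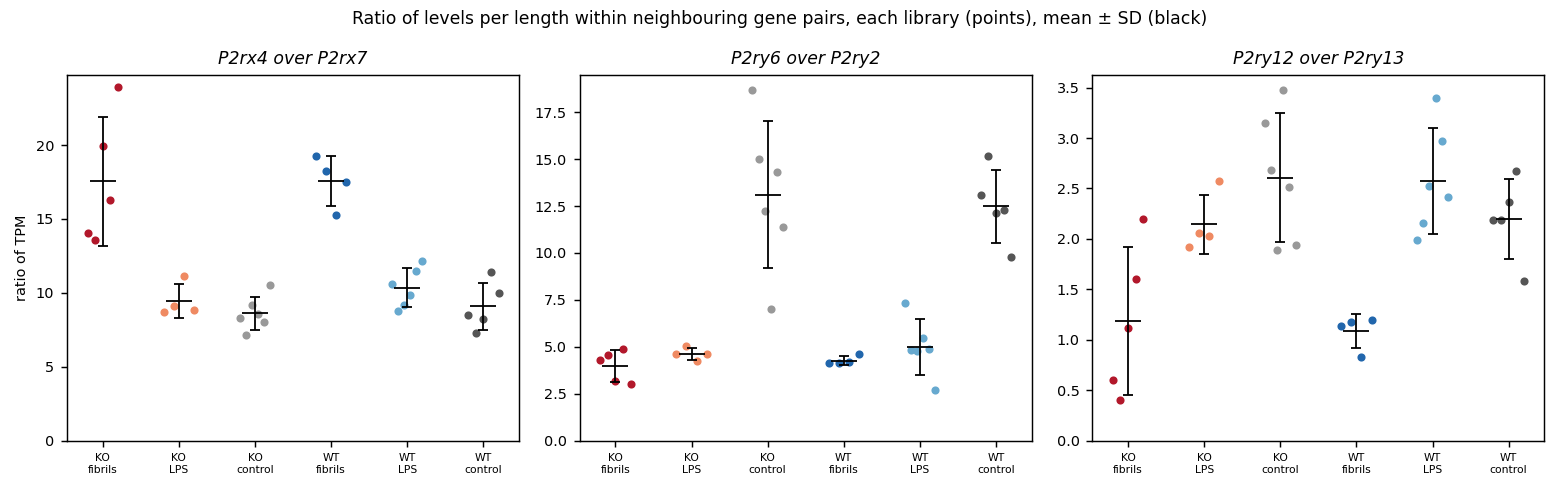
Ratio of TPM within the 3 neighbouring gene pairs (y axis, linear from 0) in each library (points), with group mean and SD in black. P2rx4 over P2rx7 is high with fibrils in both genotypes and P2ry6 over P2ry2 is low with either stimulus.

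Entpd1, which encodes CD39, the main enzyme that degrades extracellular ATP and ADP on microglia, fell with fibrils. It was at 26.9, 41.1, 14.6, 20.5 and 14.2 CPM in KO fibril libraries, against 67.8 to 116 CPM (median 89.6) in KO controls. In wild-type cells it was at 45.4, 38.2, 42.3 and 48.8 CPM with fibrils, against 68.3, 65.2, 52.8, 91.0 and 168 CPM in controls. The groups did not overlap in either genotype. The log2 fold change was -1.92 ± 0.27 in KO (adjusted p = 1.05e-05) and -1.03 ± 0.29 in wild-type cells (adjusted p = 0.0105). Without wild-type control replicate 6, the library at 168 CPM, the wild-type value was -0.67 ± 0.26 (adjusted p = 0.0488). LPS left it at 90.5 to 115 CPM in KO and 62.8 to 144 CPM in wild-type cells, overlapping the controls and not called. The transcript Entpd1-201 held 84.8% of its counts over all libraries and Entpd1-204 held 10.4%. The share of Entpd1-204 was 0 to 0.98% in wild-type fibril libraries and 0 to 16.8% in wild-type controls, and it was 0 to 13.5% in KO fibril libraries and 9.46 to 23.5% in KO controls, which overlapped.

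Adora2a encodes a Gs-coupled adenosine receptor and was near the limit of detection in controls. It had 2.05, 1.17, 4.05, 2.77 and 12.3 CPM in KO fibril libraries and 2.46, 1.95, 2.14 and 1.5 CPM in KO LPS libraries, against 0 to 1.29 CPM (median 0.427) in KO controls. Wild-type cells had 2.09, 2.35, 1.58 and 2.64 CPM with fibrils and 1.34 to 2.94 CPM (median 2.03) with LPS, against 0.537, 0.558, 0.973, 0.851 and 0 CPM in controls. Libraries with 0 counts, KO control replicate 4 and wild-type control replicate 6, allow up to 0.298 and 0.175 CPM at 3 counts, counting error only. The stimulated libraries lay above the controls of their genotype, apart from 1 KO fibril library at 1.17 CPM. Fibrils gave 3.00 ± 0.58 on the log2 scale in KO (adjusted p = 0.000392) and 1.87 ± 0.63 in wild-type cells (adjusted p = 0.0267). The KO value was 2.17 ± 0.54 (adjusted p = 0.00444) without fibril replicate 5, the library at 12.3 CPM, and that for wild-type cells no longer passed without wild-type control 1 or wild-type fibril 2 or 4 (adjusted p 0.0513 to 0.0607). LPS gave 1.85 ± 0.60 in KO (adjusted p = 0.0379) and 1.85 ± 0.59 in wild-type cells (adjusted p = 0.0308). The KO call was lost without KO control 1, 2, 4 or 5 or KO LPS 1, 2 or 3 (adjusted p 0.0528 to 0.101), and the wild-type call without wild-type control 1, 2 or 6 or wild-type LPS 1 or 2 (adjusted p 0.0529 to 0.0738). With no filter on low counts both LPS calls were lost (adjusted p = 0.0645 in KO and 0.0505 in wild-type cells). The KO one was also lost with limma-voom (0.0765) and with the compared groups alone (0.0872), and the wild-type one with the description's replicate number as a block (0.0751). The wild-type fibril call was lost with 1 surrogate variable (0.0699) and with the marker covariate (0.0724).

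Adora2b, the low-affinity Gs-coupled adenosine receptor, separated the stimuli most clearly. It was at 4.28, 4.44, 7.25, 4.96 and 6.21 CPM in KO fibril libraries and 32.5, 30.4, 28.1 and 24.1 CPM in KO LPS libraries, against 2.51 to 7.46 CPM (median 4.01) in KO controls. Wild-type libraries had 4.45, 4.61, 4.62 and 3.49 CPM with fibrils and 29.9 to 47.6 CPM (median 35.7) with LPS, against 2.81, 3.30, 6.01, 8.74 and 7.70 CPM in controls. All LPS libraries lay above every other library, and fibril libraries overlapped the controls. LPS gave 2.79 ± 0.27 on the log2 scale in KO (adjusted p = 1.5e-08) and 2.70 ± 0.27 in wild-type cells (adjusted p = 1.76e-08). Fibrils gave 0.39 ± 0.26 in KO and -0.41 ± 0.29 in wild-type cells, not called.

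Adora3, a Gi-coupled adenosine receptor, was low throughout. It was at 1.40 to 3.08 CPM in KO fibril libraries, 1.35 to 2.98 CPM in KO LPS libraries and 1.34 to 3.11 CPM in KO controls. It was at 1.74 to 3.04 CPM, 0.813 to 2.45 CPM and 1.26 to 3.56 CPM in wild-type fibril, LPS and control libraries. The groups overlapped, and its largest difference from controls, -0.65 ± 0.31 with LPS in wild-type cells (adjusted p = 0.200), was not called. Fibrils against LPS in wild-type cells gave a larger value, 0.75 ± 0.33 (adjusted p = 0.0757), also not called. Adora3 shares its strand with the overlapping gene Tmigd3, which had at most 0.130 CPM.

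Set directly against LPS, fibrils left the ADP receptors, P2rx7, Entpd1 and Adora2b lower. In KO cells 6 of 10 genes were lower and none higher, where 26.5% of all genes were called (12.7% lower, 13.8% higher), and in wild-type cells 5 were lower, where 37.1% were called (18.9% lower, 18.1% higher). In KO cells the fibril libraries of all 6 lay below the LPS libraries. In wild-type cells those of P2ry12, P2ry6, Entpd1 and Adora2b lay below and those of P2rx4 above, while P2ry13 and P2rx7 overlapped. Of all genes, 20.6% in KO and 35.4% in wild-type cells did not overlap, in either direction. Adora2b differed by -2.40 ± 0.28 in KO (adjusted p = 5.58e-07) and -3.11 ± 0.30 in wild-type cells (adjusted p = 1.98e-08), and Entpd1 by -2.16 ± 0.29 (adjusted p = 3.96e-06) and -1.29 ± 0.29 (adjusted p = 0.00111). P2ry12 differed by -2.03 ± 0.39 in KO and -1.96 ± 0.39 in wild-type cells, P2ry13 by -1.28 ± 0.27 and -0.71 ± 0.26, and P2rx7 by -0.66 ± 0.125 and -0.37 ± 0.12. P2ry6 was lower in KO cells by a small margin (-0.26 ± 0.08, adjusted p = 0.0235), and the call was lost without KO LPS 2 or 3 or KO fibril 5 (adjusted p 0.0563 to 0.0963), with library size as the only scaling (0.107), with no filter (0.0739) and with the compared groups alone (0.0547). For P2ry13 in wild-type cells (adjusted p = 0.0368) the call was absent without any 1 of wild-type LPS 2 to 5 or wild-type fibril 1 to 4 (adjusted p 0.0522 to 0.0921) and under 4 of 13 other settings, namely no filter, either replicate block and the marker covariate (0.0611 to 0.0826). That of P2rx7 (adjusted p = 0.0180) was absent without wild-type fibril 2 (adjusted p = 0.0502). A further 3 wild-type values that missed the threshold passed it without single libraries: P2ry6 (adjusted p = 0.0518) without any 1 of 10, down to 0.0169, P2rx4 (adjusted p = 0.0661) without KO control 6 or wild-type control 6 (0.0408 and 0.0489), and Adora3 (adjusted p = 0.0757) without wild-type LPS 6 (0.0241). For P2ry6 the 10 were KO control 2, 4, 5 and 6, KO LPS 3, KO fibril 5, wild-type control 1, 5 and 6, and wild-type LPS 2. Without the 7 libraries that stand apart the counts were 6 in KO and 7 in wild-type cells, with 2 of the wild-type calls higher. Over all genes, 4434 were called in KO cells in that setting, against 3805 in the main test. In wild-type cells calls over all genes ran from 4226 to 6523 over the 13 other settings, against 5316 in the main test. Library size as the only scaling gave 5 lower and 1 higher in KO and 5 lower and 2 higher in wild-type cells. P2ry2 did not differ detectably, at 0.01 ± 0.22 in KO and -0.14 ± 0.21 in wild-type cells.

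Loss of Lrrk2 alone changed none of the 10 genes past the threshold. In controls KO and wild-type libraries overlapped for every gene, and the fitted differences ran from -0.46 (Adora2b) to 0.06 (Adora3), with 0.321% of all genes called by edgeR, 7.27% of all genes under an unadjusted p of 0.05 and 0.725% without overlap. No listed gene had an unadjusted p under 0.05 there. With LPS the differences ran from -0.37 (Adora2b) to 0.53 (Adora3), with 1.73% of all genes called, 17.2% under an unadjusted p of 0.05 and 8.29% without overlap. P2ry6 alone of the 10 had an unadjusted p under 0.05 there (0.0298). DESeq2 and limma-voom also called none in these comparisons, nor did edgeR without the 7 libraries that stand apart.

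With fibrils, edgeR called none of the 10 genes between KO and wild-type cells, where 8.94% of all genes were called and 24.7% had an unadjusted p under 0.05. At that unadjusted level 5 of the 10 passed, P2ry13, P2ry6, P2rx4, P2rx7 and Entpd1. DESeq2 called 1 gene, Entpd1 (-0.85 ± 0.29, adjusted p = 0.0313), and limma-voom none. Entpd1 differed by -0.89 ± 0.29 between KO and wild-type cells (adjusted p = 0.0503), P2rx7 by -0.37 ± 0.125 (adjusted p = 0.0602), P2ry6 by -0.24 ± 0.08 (adjusted p = 0.0669), P2rx4 by -0.37 ± 0.14 (adjusted p = 0.0983) and P2ry13 by -0.59 ± 0.27 (adjusted p = 0.172). For P2ry13, P2ry6, P2rx4 and P2rx7, every KO fibril library lay below every wild-type fibril library, as 15.3% of all genes did in either direction. Entpd1 passed the threshold without KO fibril 2, KO control 6, wild-type control 3 or 6, or wild-type LPS 1 or 6 (adjusted p 0.00949 to 0.0475), P2rx7 without KO fibril 2 or 4 or wild-type LPS 1 (0.0370 to 0.0442), and P2ry6 without KO control 4 (0.0429). Without the 7 libraries that stand apart, 5 genes were lower: Entpd1 (-0.76, adjusted p = 0.0187), P2rx4 (-0.46, adjusted p = 0.00487), P2ry13 (-0.66, adjusted p = 0.0173), P2ry6 (-0.22, adjusted p = 0.0378) and P2rx7 (-0.36, adjusted p = 0.0466). Calls over all genes also rose in that setting, to 2580 from 1282 in the main test. The other-cell markers did not overlap between these groups (1.20 to 2.89 mean log2 CPM in KO fibril libraries, against -0.76 to -0.37 in wild-type fibril libraries), and with the marker score as a covariate none passed, Entpd1 being at -0.40 ± 0.34 (adjusted p = 0.792) and P2rx4 at 0.01 ± 0.14 (adjusted p = 0.996). The part of those markers in the difference was not tested further. Adora2a was higher in KO cells by 1.04 ± 0.61 (adjusted p = 0.307) and by 0.21 ± 0.57 without KO fibril replicate 5.

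**Figure D4:**
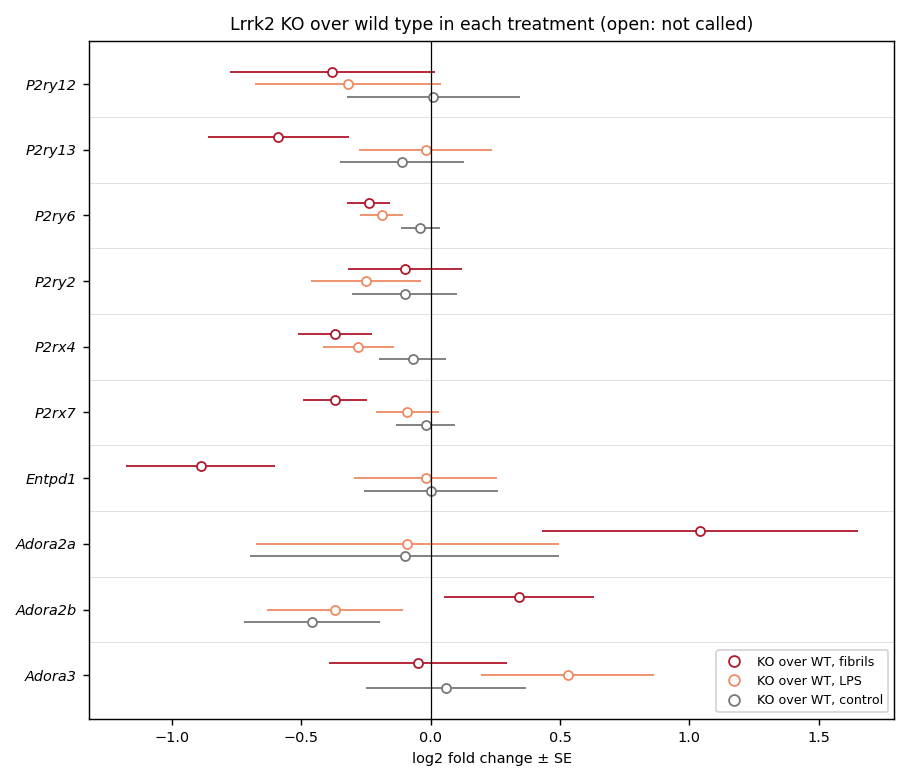
Log2 fold change ± SE (x axis) of KO over wild type for each gene with fibrils, LPS or control. Open points did not pass the test, which holds for all 30 values, and with fibrils Entpd1 is furthest to the left at -0.89.

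The difference of the responses between genotypes, tested as an interaction, was not called for any of the 10 genes or any gene tested (0% for both stimuli by edgeR, with 11.6% of all genes under an unadjusted p of 0.05 for fibrils and 4.18% for LPS). For fibrils, the KO response minus the wild-type response was -0.89 ± 0.39 for Entpd1 (95% interval -1.69 to -0.09, adjusted p = 0.383), -0.35 ± 0.17 for P2rx7 and 0.80 ± 0.39 for Adora2b. Entpd1 and P2rx7 had an unadjusted p under 0.05 (0.0300 and 0.0468). Without the 7 libraries that stand apart the Entpd1 value was -1.26 ± 0.31 and passed (adjusted p = 0.0412). Over all genes 250 were called in that setting, against 0 in the main test. P2ry2 gave 0.00 ± 0.29 (95% interval -0.59 to 0.59). For LPS, Adora2b gave 0.10 ± 0.37 (95% interval -0.66 to 0.86) and P2ry2 -0.15 ± 0.29.

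Beyond the 10 genes, 45 of 59 listed genes of nucleotide release, breakdown, uptake and signalling passed the filter. With fibrils or LPS in at least 1 genotype, 28 of them were called. No share of all genes was taken for that pooled count, so it cannot be set against all genes. Fibrils raised 10 and lowered 9 in KO cells, and raised 8 and lowered 8 in wild-type cells. LPS raised 6 and lowered 1 in each genotype. These are 42.2% (KO) and 35.6% (wild type) of the 45 with fibrils, against 23.7% and 29.4% of all genes, and 15.6% in each genotype with LPS, against 13.7% and 15.1%. Without the 7 libraries that stand apart, fibrils raised 7 and lowered 10 in KO and raised 10 and lowered 11 in wild-type cells, and LPS raised 5 and lowered 0 in KO and raised 6 and lowered 1 in wild-type cells. With fibrils these are 37.8% (KO) and 46.7% (wild type) of the 45. Wild-type fibril calls over all genes also rose in that setting, to 5845 from 4216 in the main test. The shares of all genes given above are of the main test only. Nlrp3, the inflammasome sensor downstream of P2X7, rose with fibrils by 1.87 ± 0.27 in KO and 1.22 ± 0.29 in wild-type cells and with LPS by 4.04 ± 0.30 and 4.35 ± 0.31. Il1b, whose product the inflammasome matures, rose with LPS by 4.53 ± 0.58 in KO and 5.09 ± 0.62 in wild-type cells, and with fibrils in KO cells by 2.70 ± 0.53 (adjusted p = 0.000403). Its fibril libraries overlapped the controls in both genotypes, at 41.1 to 478 against 21.7 to 64.3 CPM in KO and 58.4 to 103 against 7.81 to 63.4 CPM in wild-type cells. Cd38, an enzyme that consumes NAD+, rose with fibrils by 1.96 ± 0.49 in KO and 1.80 ± 0.55 in wild-type cells, and Pnp, which breaks down inosine and guanosine, by 1.25 ± 0.26 and 1.12 ± 0.28. P2ry1, the Gq-coupled ADP receptor, fell with fibrils like the Gi-coupled pair, by 0.79 ± 0.28 in KO (adjusted p = 0.0393) and by 0.85 ± 0.31 in wild-type cells (adjusted p = 0.0390). Its fibril libraries overlapped the controls in both genotypes, at 1.46 to 4.42 against 2.09 to 6.41 CPM in KO and 2.05 to 4.03 against 3.39 to 7.58 CPM in wild-type cells. Entpd6, a relative of Entpd1, fell with LPS by 0.37 ± 0.12 in KO and by 0.50 ± 0.115 in wild-type cells. Between genotypes, 5 of the 45 were called with fibrils (11.1%, against 8.94% of all genes) and 3 with LPS (6.67%, against 1.73%). Panx1, a channel that releases ATP, was lower in KO than in wild-type cells with fibrils (-1.16 ± 0.25, adjusted p = 0.00807), at 7.50 to 21.2 CPM in KO and 30.3 to 34.8 CPM in wild-type libraries. In controls Panx1 differed by -0.47 ± 0.23 (adjusted p = 0.683), not called, at 9.1 to 15.3 CPM in KO and 10.9 to 20.9 CPM in wild-type libraries. The connexin Gja1, an astrocyte marker, was higher in KO than in wild-type cells with fibrils by 3.74 ± 0.93 (adjusted p = 0.0164), at 3.66 to 26.0 CPM in KO and 0.490 to 1.76 CPM in wild-type libraries. With the marker covariate none of the listed genes passed between genotypes with fibrils.

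**Figure D5:**
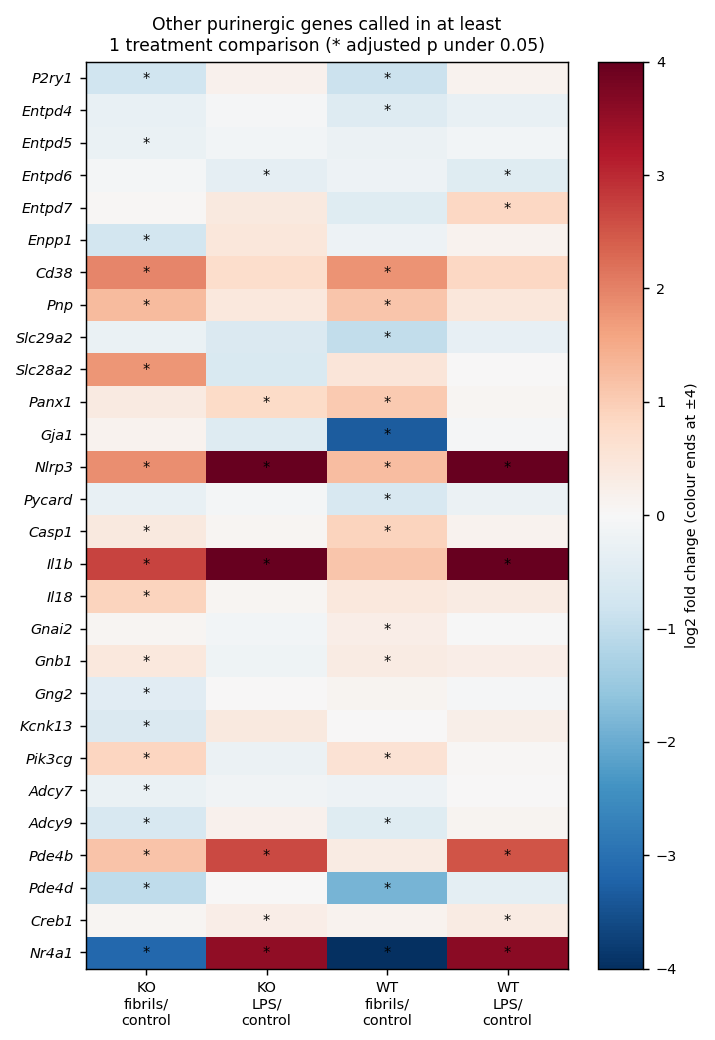
Log2 fold change (colour, ending at 4 in either direction) of the 28 other purinergic genes called in at least 1 treatment comparison, with fibrils or LPS over control in KO and wild-type cells. Asterisks mark called values. Nlrp3 is high in all 4 columns, and Nr4a1 is high with LPS and low with fibrils.

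Likeness was measured as the root mean square difference of centred log2 CPM group means over the 6 groups, among 9423 genes whose log2 CPM averaged 2 or more. The genes nearest to P2ry12 were Gpr155 (0.115) and St6gal1 (0.194), to P2ry13 Man2a2 (0.082) and Zfp608 (0.091), to P2ry6 Wdtc1 (0.041) and Usp48 (0.042), and to P2ry2 Gpr85 (0.126) and Gch1 (0.153). Those nearest to P2rx4 were Snhg3 and Apobr (0.058 each), to P2rx7 Rgs10 (0.030) and Gnpda1 (0.035), and to Entpd1 Reps2 (0.115) and Arl4c (0.128). Those nearest to Adora2a were Cd69 (0.197) and Icam1 (0.234), to Adora2b Prdm1 (0.190) and Ppp1r15a (0.228), and to Adora3 Taf5 (0.058) and Commd5 (0.064). Among the 10 genes themselves, P2ry6 and P2rx7 were closest (0.18), P2ry12 was closer to Entpd1 (0.30) than to its neighbour P2ry13 (0.55), and P2ry12 and Adora2a were farthest apart (1.90).

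Transcripts divided the counts unevenly. P2rx7-203 held 87.1% of P2rx7 counts, P2rx4-202 held 57.6% of P2rx4 counts, with 20.8% for P2rx4-206 and 19.3% for P2rx4-201, and P2ry2-201 held 88.6% of P2ry2 counts. P2ry12-202 held 69.5% of P2ry12 counts, but its share ran from 31.05% to 90.35% among KO controls alone, so no change in its transcripts can be read from these libraries.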

How the data were processed

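The libraries were made from total RNA with a stranded kit after removal of ribosomal RNA, and read from a single end, per the labels' protocols. CASAVA 1.7.1, STAR 2.4.2a and the mm10 build are named in the submitters' notes on processing, with a counting program not given in the sources used here. Raw counts per transcript were deposited by the authors, as whole numbers without normalization. Of 94647 transcripts, 91320 matched GENCODE mouse release M21 (same build) and were summed to 38031 genes. The 3327 others held 0.779% to 0.891% of a library's counts and were left out. Genes passing edgeR's filter over 6 groups (14346) were fitted with TMM factors (0.827 to 1.14) and edgeR's quasi-likelihood test (edgeR 4.0.16, R 4.3.3), a mean per group and 24 residual degrees of freedom. Genes with a Benjamini-Hochberg adjusted p under 0.05 over all genes were called. SE is the log2 fold change over the square root of F. TPM used transcript lengths. Fits were checked on simulated counts.

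The genes named are the 10 members, the called genes of other purinergic lists (at most 4 with the smallest p per list and comparison), Lrrk2, Tnf, the markers by list and the 2 most alike genes per member. Members, lists and alternatives were chosen with earlier results of these data known. Leaving out 7 libraries and the marker covariate were chosen after seeing the data. Other settings were RLE and library size scaling, other filters, limma-voom (limma 3.58.1), DESeq2 1.42.0, the compared groups alone, 1 surrogate variable (sva 3.50.0), protein-coding transcripts, a replicate block and each library left out. No libraries were identical. Gene totals of 8936310 to 35677005 counts leave the lowest gene, Adora2a, at 0 to 255 counts a library. Intervals and floors cover counting error only where stated so.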

Additional observations from a re-analysis of the deposited data

Results flagged for a closer look

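In 4 of the 60 groups of values (10 genes in 6 groups), 1 library lay far from the others of its group, beyond Dixon's 95% limit, which chance passes in about 1 in 20 groups. P2ry2 was at 68.9 CPM in wild-type LPS replicate 6 and 23.0 to 34.7 CPM in the other 5. P2rx4 was at 191 CPM in wild-type LPS replicate 1 and 250 to 277 CPM in the other 5. Adora2a was at 12.3 CPM in KO fibril replicate 5 and 1.17 to 4.05 CPM in the other 4. Adora2b was at 3.49 CPM in wild-type fibril replicate 4 and 4.45 to 4.62 CPM in the other 3. The first 3 of these libraries are among the 7 that stand apart.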

How the results depend on the processing

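Over 110 results for single genes and 43 alternatives, 4586 of 4730 values kept their side of the threshold, 73 newly passed it and 71 no longer did. The sign changed in 147 of the 4586, none of them called in the main test or the alternative. The count of genes called between KO and wild-type cells with fibrils was 0 in the main test, 1 with DESeq2, 4 and 3 with the replicate number of the title or of the description as a block, 5 without the 7 libraries that stand apart, and 0 to 2 leaving out single libraries. No comparison had a correlation above 0.1 for every pair of libraries with the same replicate number. By the title's numbers, 4 of 5 pairs passed 0.1 for LPS over control in wild-type cells and for KO over wild type in controls. The same held for fibrils over control in KO cells. Pairing was thus neither shown nor excluded, and the block values say little about it. Library size as the only scaling gave 6 calls with LPS in each genotype (2 to 3 leaving out single libraries), and it moved the median gene to -0.21 in KO and -0.23 in wild-type cells with LPS, and to -0.13 and -0.25 with fibrils. Before that shift is subtracted, the added lower calls with LPS were at -0.33 (P2ry6), -0.33 (P2rx4) and -0.40 (P2rx7) in KO and -0.22 (P2ry6), -0.37 (P2rx7) and -0.87 (Adora3) in wild-type cells. Higher genes then made up 31.0% (KO) and 17.4% (wild type) of all fibril calls, against 51.3% and 47.1% with TMM. Leaving out single libraries gave 4 to 8 calls for fibrils and 3 to 7 for fibrils against LPS in wild-type cells, with the lowest counts without wild-type fibril replicate 2. The difference of fibril responses gave 1 call without the 7 libraries, where 250 were made over all genes, against 0 in the main test. Between KO and wild-type cells, calls over all genes numbered 17 to 152 in controls (46 in the main test), 103 to 1097 with LPS (248) and 66 to 2580 with fibrils (1282), the lowest of the last with the marker covariate, and 35 to 478 with LPS and 375 to 1639 with fibrils leaving out single libraries. Calls among the other purinergic genes numbered 0 to 7 with LPS (3) and 0 to 12 with fibrils (5) between genotypes, 7 to 21 with fibrils in wild-type (16) and 8 to 21 in KO cells (19), and 4 to 10 with LPS in KO cells (7). The main-test calls between genotypes were 6.67% (LPS) and 11.1% (fibrils) of the 45 tested, against 1.73% and 8.94% of all genes. With library size alone, higher genes made up 18.2% (KO) and 15.5% (wild type) of LPS calls, against 46.4% and 46.9% with TMM, and 84.4% and 68.9% of genotype calls with fibrils and with LPS, against 59% and 27.4%. RLE scaling gave 68.9% for fibrils between genotypes. Adora2a and Adora3 had the lowest counts, which limits their precision. The causes were not tested.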

Other observations

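Among 6 listed effectors of P2Y12, fibrils raised 2 and lowered 2 in KO cells and raised 3 in wild-type cells (edgeR). Among 8 listed genes of adenosine and cyclic AMP signalling, they raised 1 and lowered 4 in KO cells and lowered 3 in wild-type cells. Over all genes, 23.7% were called in KO and 29.4% in wild-type cells. Pik3cg, a phosphoinositide kinase activated by G protein beta-gamma subunits, rose with fibrils by 0.87 ± 0.15 on the log2 scale in KO (adjusted p = 0.000133, edgeR) and 0.59 ± 0.17 in wild-type cells (adjusted p = 0.0106). Gnb1, which encodes such a subunit, rose by 0.42 ± 0.10 and 0.34 ± 0.115, while Gng2, which encodes a gamma subunit, fell by 0.46 ± 0.14 in KO cells. The adenylyl cyclase Adcy9 fell by 0.64 ± 0.12 in KO and by 0.48 ± 0.13 in wild-type cells, and the cyclic AMP phosphodiesterase Pde4d fell by 1.02 ± 0.29 and by 1.85 ± 0.33. Pde4b, of the same family, rose with LPS by 2.65 ± 0.36 in KO and 2.51 ± 0.36 in wild-type cells. Nr4a1, an immediate early gene responsive to cyclic AMP, was at 0.879 to 1.64 CPM in KO fibril libraries, 86.7 to 181 CPM in KO LPS libraries and 2.34 to 25.5 CPM in KO controls. It was at 0.581 to 1.37 CPM, 165 to 319 CPM and 2.18 to 36.9 CPM in wild-type fibril, LPS and control libraries.

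Kcnk13, the potassium channel THIK-1 of microglia, fell with fibrils in KO cells by 0.57 ± 0.15 (adjusted p = 0.00585, edgeR) and was lower there than in wild-type fibril libraries by -0.52 ± 0.16 (adjusted p = 0.0445). The adenylyl cyclase Adcy7 was lower in KO than in wild-type cells with fibrils (-0.32 ± 0.08, adjusted p = 0.0179) and with LPS (-0.40 ± 0.08, adjusted p = 0.00902). No listed gene was called between genotypes with fibrils under the marker covariate or 1 surrogate variable, or with LPS under library size as the only scaling or without KO LPS replicate 1. Of the 45 other purinergic genes, the main test called 11.1% between genotypes with fibrils and 6.67% with LPS, against 8.94% and 1.73% of all genes.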
